A study of Mus musculus with 18 samples.

Results

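The cytosolic glycine tRNA fragments were taken as the rows of the deposited table that carry the name of a mature cytosolic tRNA-Gly, which gave 4 families (mature-tRNA-Gly-GCC, mature-tRNA-Gly-CCC, mature-tRNA-Gly-TCC and mature-tRNA-Gly-ACC) among 51 cytosolic tRNA families and 1234 RNAs. A family holds all tRNA-derived small RNAs (tsRNAs) assigned to 1 anticodon, and each family is here called by its anticodon, as in tsRNA-Gly-GCC. The rule used only the names and none of the values. All 4 families had reads in all 18 libraries and passed the filter on low values in every comparison.

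The livers came from 9 male wild-type C57BL/6 mice, which were 8 weeks old at the start of feeding. The mice received the semi-synthetic AIN76 diet with 0.02% cholesterol (LCD, mice 1 to 5) or with 0.5% cholesterol (HCD, mice 15 to 18). The series design gives 4 weeks of feeding, whereas other labels give 9 weeks or a time of 8 weeks. Liver RNA of 15 to 50 nt from each mouse was sequenced by PANDORA-seq, in which the RNA is treated with T4PNK and then with AlkB, and by traditional-seq, in which it is left untreated. This gave 5 LCD and 4 HCD libraries per method. Values are RPM, the reads of an RNA scaled to a common library total, and a fold change is on the log2(RPM + 1) scale, which understates changes of rare RNAs.

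tsRNAs are cut from mature tRNAs or their precursors, and the nuclease angiogenin cuts many of them in the anticodon loop, which leaves a 5′ and a 3′ fragment. T4PNK restores end groups that adapter ligation needs, and AlkB takes methyl groups off bases at which the reverse transcriptase would halt. The 5′ fragments of tRNA-Gly-GCC and tRNA-Glu-CTC are widely found small RNAs of mammalian tissues and body fluids, and in mouse sperm and embryos fragments of tRNA-Gly-GCC have been tied to the repression of genes driven by the endogenous retrovirus MERVL.

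The RefSeq annotation of the mouse assembly GRCm38.p6 lists 14 genes for tRNA-Gly-GCC on 7 chromosomes, 6 for tRNA-Gly-CCC on 4, 7 for tRNA-Gly-TCC on 3 and 1 for tRNA-Gly-ACC on chromosome 11. The genes are 71 nt (GCC and CCC), 72 nt (TCC) and 74 nt (ACC) long, so gene length differs little between the families, whose RPM values are not divided by length. Other influences on detection, such as end groups and methylated bases, may differ between the families and were not measured. Chromosome 1 holds 5 of the GCC genes, between positions 74816747 and 171081946, and 5 of the TCC genes, between 171037997 and 171102827. The table sums all genes and all fragments of an anticodon, so neither the gene nor the end of the tRNA is told apart. A separate tRNA-Gly with the TCC anticodon is encoded in the mitochondrial genome at chrM:9391-9458 on the plus strand (68 nt, GENCODE M21). Its DNA sequence is shown because this family served as the glycine comparator outside the nucleus-encoded set, with the anticodon at bases 31 to 33 in capitals.
mt-Tg: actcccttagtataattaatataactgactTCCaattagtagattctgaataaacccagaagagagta

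The inferred depth of the libraries ran from 1934330 to 25488322 reads, so that 1 read was worth 0.0392 to 0.517 RPM. tsRNA-Gly-GCC rested on at least 10446 inferred reads in every library, and tsRNA-Gly-ACC, the rarest family, on 24.4 to 388. No library had values identical to another, and the lowest Pearson correlation within a group was 0.969 across the 1234 RNAs. The miRNAs listed as hepatocyte markers (miR-122, miR-192, miR-194 and miR-148a) made up 62.1% to 92.5% of miRNA reads in every library. The erythroid list (miR-451a, miR-144 and miR-486) held at most 0.0692%, a value reached in an LCD library by PANDORA-seq. In all LCD libraries by that method miR-451a and miR-144 were at 0, so the erythroid reads there were miR-486. By traditional-seq, 3 of the 4 erythroid entries had at least 1 RPM in all LCD libraries. PANDORA-seq libraries held 2.04% to 15.8% of their listed reads in miRNAs and traditional-seq libraries 62.0% to 82.0%, so the values of the methods are shares of very different totals.

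tsRNA-Gly-GCC made up most glycine reads in each group, and was among the most abundant tsRNAs of the liver by either method. In LCD-fed mice 1 to 5 by traditional-seq, tsRNA-Gly-GCC stood at 28352, 29539, 18351, 16685 and 28851 RPM. In HCD-fed mice 15 to 18 by traditional-seq, it stood at 4587, 8523, 1438 and 2924 RPM. Every HCD library thus lay below every LCD library of this method, which held for 3 of the 4 glycine families and for 17.5% of tested RNAs. By PANDORA-seq, tsRNA-Gly-GCC stood at 10274, 11357, 7267, 12357 and 10150 RPM in LCD-fed mice and at 8844, 4221, 3725 and 4652 RPM in HCD-fed mice. Here the HCD library of mouse 15 reached into the LCD range and the other 3 lay below it.

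tsRNA-Gly-CCC, whose parent tRNA reads the GGG codon, was the next most abundant glycine family in every library. By traditional-seq it measured 3096, 3462, 2003, 1802 and 3531 RPM in LCD-fed mice and 514, 965, 167 and 345 RPM in HCD-fed mice. By PANDORA-seq it measured 793, 1233, 799, 1234 and 1881 RPM in LCD-fed mice and 1047, 592, 462 and 671 RPM in HCD-fed mice. The groups were apart by traditional-seq and overlapped by PANDORA-seq, as for tsRNA-Gly-GCC.

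tsRNA-Gly-TCC, from the tRNA that reads GGA, was a rare family in all groups. By traditional-seq it measured 79.3, 108, 81.5, 64.5 and 77.3 RPM in LCD-fed mice and 16.3, 40.1, 11.8 and 14.7 RPM in HCD-fed mice. By PANDORA-seq it measured 69.5, 57.6, 51, 76.8 and 85.6 RPM in LCD-fed mice and 49, 46.9, 42.6 and 58.4 RPM in HCD-fed mice. The diets lay apart by traditional-seq only, where mouse 16 was the highest of the HCD libraries.

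tsRNA-Gly-ACC, whose parent tRNA has a single annotated gene, showed another order of the groups. By traditional-seq it measured 12.6, 18.1, 18, 13.2 and 24.6 RPM in LCD-fed mice and 12.8, 18.2, 8.46 and 26.7 RPM in HCD-fed mice. By PANDORA-seq it measured 29.9, 70.1, 28.7, 29.5 and 52.3 RPM in LCD-fed mice and 20.1, 24.0, 21.3 and 26.0 RPM in HCD-fed mice. The diets overlapped by traditional-seq, and by PANDORA-seq every HCD library lay below every LCD library, which among the glycine families held for this 1 only and among tested RNAs for 7.38%.

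**Figure D1:**
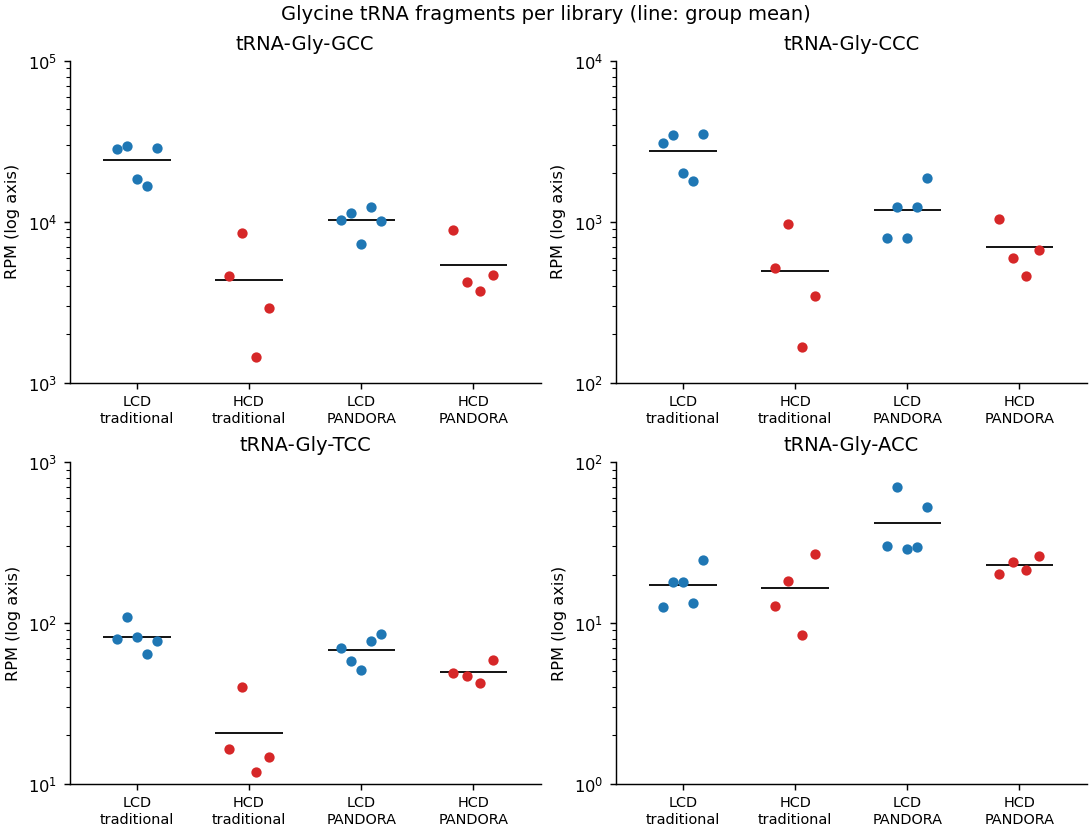
RPM of the 4 glycine families (log axis, which does not start at 0) in each library of the 4 groups, blue for LCD and red for HCD, with a line at the group mean. tsRNA-Gly-GCC, CCC and TCC are low in the HCD libraries by traditional-seq, where the mean of tsRNA-Gly-GCC is 4368 against 24356 RPM, whereas tsRNA-Gly-ACC means are 16.5 and 17.3 RPM.

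tsRNA-Gly-GCC exceeded tsRNA-Gly-CCC and tsRNA-Gly-CCC exceeded tsRNA-Gly-TCC in 18 of 18 libraries, while tsRNA-Gly-TCC exceeded tsRNA-Gly-ACC in 16 of 18, the exceptions being mouse 18 by traditional-seq and mouse 2 by PANDORA-seq. tsRNA-Gly-GCC held a mean of 89.5% ± 0.481 (SD, n = 5) of glycine reads in LCD-fed mice by traditional-seq and 88.9% ± 0.554 (n = 4) in HCD-fed mice, and 88.8% ± 3.23 (n = 5) and 87.2% ± 1.25 (n = 4) by PANDORA-seq. In HCD-fed mice by traditional-seq and in LCD-fed mice by PANDORA-seq the ranges of tsRNA-Gly-TCC and tsRNA-Gly-ACC overlapped, so the order of these neighbours did not hold beyond their spread there.

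Reads of near-identical families could be shared. The values of the 4 families were whole multiples of the inferred value of 1 read, within 0.02 of a read, in 0 (ACC) or 1 (GCC, CCC and TCC) of 18 libraries. The mitochondrial glycine family was whole in 18 of 18, and tsRNA-Glu-CTC and tsRNA-Glu-TTC in 0. The sources used here do not say how reads that fit several families were counted, so the split between tsRNA-Gly-GCC and tsRNA-Gly-CCC is uncertain. The same limit holds for the values of tsRNA-Gly-TCC and tsRNA-Gly-ACC and for their ratios to tsRNA-Gly-GCC.

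The first question was whether cholesterol feeding altered glycine fragments as seen by PANDORA-seq. After scaling by trimmed mean of M values (TMM), tsRNA-Gly-GCC fell in HCD-fed mice by 1.17 on the log2 scale (SE 0.33), with an adjusted p of 0.0246 by limma. Its mean RPM as deposited, without this scaling, was 10281 ± 1908 (SD, n = 5) in LCD-fed and 5360 ± 2353 (n = 4) in HCD-fed mice. Of the 4 glycine families, 1 was called lower, where 15.6% of the 244 tested RNAs were, and 0 were called higher, where 7.79% were. The other families also had negative estimates that missed the threshold, with log2 fold changes of -0.93 for tsRNA-Gly-CCC (SE 0.36, adjusted p = 0.0785), -0.61 for tsRNA-Gly-TCC (SE 0.35, adjusted p = 0.240) and -0.92 for tsRNA-Gly-ACC (SE 0.43, adjusted p = 0.138).

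The median log2 fold change of the glycine families was -0.92, beside -0.12 over all tested RNAs and -0.14 over the other 47 cytosolic families, of which 16 were lower and 3 higher. A comparison list of 7 tsRNA families (tsRNA-Glu-CTC, Glu-TTC, His-GTG, Asp-GTC, Lys-CTT, Val-AAC and Val-CAC) split into 6 lower and 1 higher. Several families outside this list were more abundant than tsRNA-Lys-CTT, Val-AAC and Val-CAC, and not all of those were lower. The counts of the list therefore do not describe abundant tsRNAs at large. tsRNA-Glu-CTC, the family on which the study centred, changed by -1.44 (SE 0.40, adjusted p = 0.0228). The mitochondrial glycine family gave 0.23 (SE 0.37, adjusted p = 0.659), although 10 of 22 mitochondrial families were lower.

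The call on tsRNA-Gly-GCC by PANDORA-seq was lost with no filter on low values (adjusted p = 0.0891), with all 18 libraries in 1 fit (log2 fold change -0.84, adjusted p = 0.105) and without the HCD library of mouse 16 (-1.11, adjusted p = 0.0572), while tsRNA-Gly-CCC passed without the LCD library of mouse 1 (-1.12, adjusted p = 0.0489). In bulk tissue, fewer cells of a type and less RNA per cell cannot be told apart. The hepatocyte marker miRNAs held 69.9% to 86.7% of miRNA reads in LCD and 83.9% to 92.5% in HCD libraries by PANDORA-seq, and 62.1% to 77.8% and 77.8% to 86.8% by traditional-seq. The part of this shift in the results was not tested.

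By traditional-seq, 3 of 4 glycine families fell in HCD-fed mice, where 6.3% of the 349 tested RNAs were called lower and 3.44% higher. With TMM scaling, tsRNA-Gly-GCC fell by 2.08 on the log2 scale (SE 0.42, adjusted p = 0.00751). Its mean RPM as deposited was 24356 ± 6284 (n = 5) in LCD-fed and 4368 ± 3054 (n = 4) in HCD-fed mice. tsRNA-Gly-CCC fell by 2.05 with TMM scaling (SE 0.41, adjusted p = 0.00650), and its mean RPM as deposited was 2779 ± 820 and 498 ± 342. These families kept the call under each scaling, filter and pseudocount tried and without any single library.

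tsRNA-Gly-TCC fell by 1.45 with TMM scaling (SE 0.41, adjusted p = 0.0389), and its mean RPM as deposited was 82.2 ± 16 in LCD-fed and 20.8 ± 13.1 in HCD-fed mice. Its call was lost with a pseudocount of 10 (adjusted p = 0.0537), with no filter (adjusted p = 0.117) and without the LCD libraries of mice 1, 3 or 4 or the HCD libraries of mice 15, 17 or 18, where the adjusted p reached 0.0678. tsRNA-Gly-ACC gave 0.46 (SE 0.35, adjusted p = 0.501), an estimate that turned to -0.13 with RPM as deposited and to -0.17 with scaling by miRNA reads. Among the 49 cytosolic families tested by traditional-seq, the log2 fold changes of tsRNA-Gly-GCC, CCC and TCC ranked 3, 4 and 6 from the lowest, and that of tsRNA-Gly-ACC ranked 34.

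The median of the glycine families by traditional-seq was -1.75, beside 0.06 over all tested RNAs and -0.07 over the other 45 cytosolic families tested, of which 6 were lower and 7 higher. Of the 7 families of the comparison list, 4 were lower, tsRNA-Glu-CTC among them with -2.67 (SE 0.45, adjusted p = 0.00142). The mitochondrial glycine family gave -0.20 (SE 0.39, adjusted p = 0.823). By this method cytosolic tsRNAs as a class held 6.24% to 8.13% of listed reads in LCD and 0.647% to 2.33% in HCD libraries. tsRNA-Gly-GCC and tsRNA-Glu-CTC themselves made up means of 35.4% and 39.7% of that class in LCD libraries. The low class sum thus includes the fall of these families and does not mean that every family was low.

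Changes by diet were read relative to the scaling. The median of all tested RNAs by PANDORA-seq moved from -0.12 with TMM to 0.03 with RPM as deposited and to -1.27 with scaling by miRNA reads, and the RNAs called higher and lower from 19 and 38 to 29 and 28 and to 0 and 113. By traditional-seq the medians were 0.06, -0.53 and -0.56, and the calls 12 and 22, 3 and 57, and 3 and 49. Relative to the median, tsRNA-Gly-GCC stood at -1.05, -1.04 and -1.43 by PANDORA-seq and at -2.13, -2.20 and -2.20 by traditional-seq. With scaling by miRNA reads the log2 fold changes of all 4 families passed by PANDORA-seq, at -2.71 for tsRNA-Gly-GCC, -2.46 for tsRNA-Gly-CCC, -2.11 for tsRNA-Gly-TCC and -2.39 for tsRNA-Gly-ACC.

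**Figure D2:**
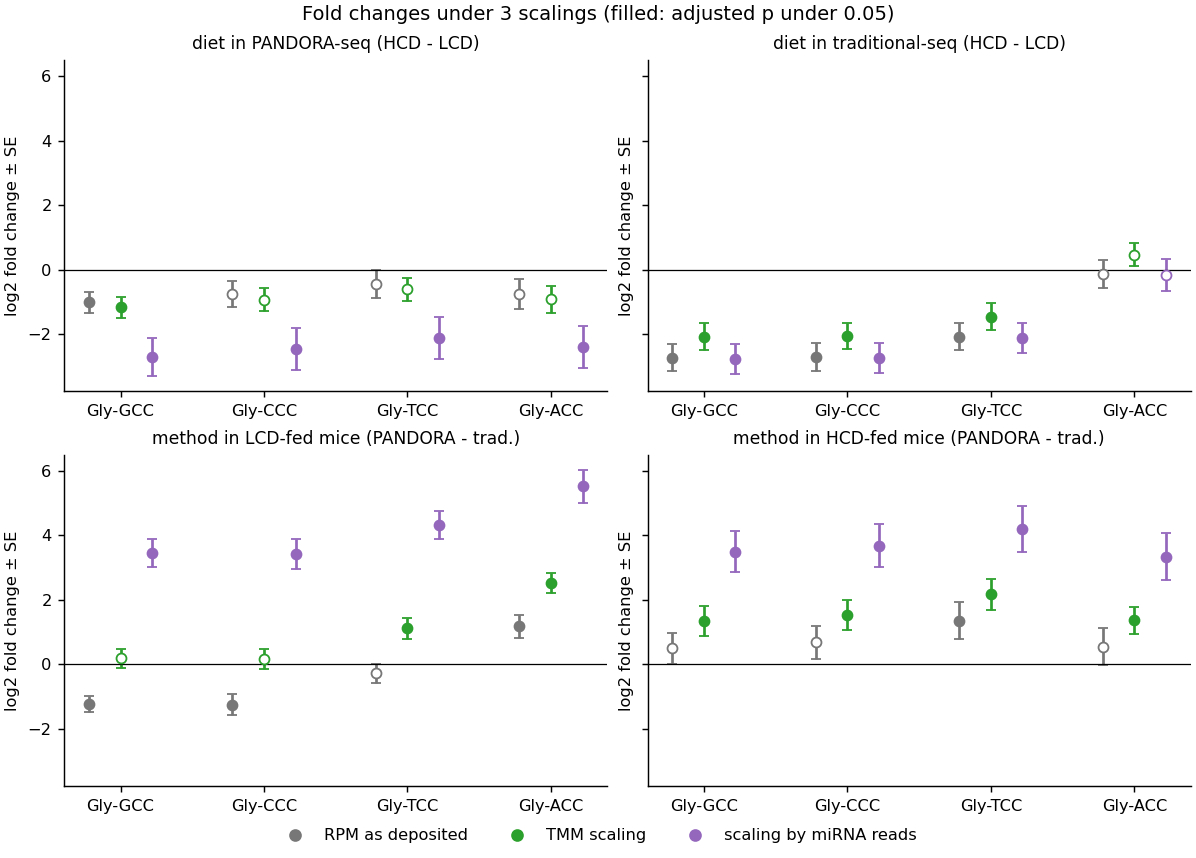
Log2 fold changes with SE of the 4 families by diet (HCD minus LCD) and by method (PANDORA-seq minus traditional-seq) under 3 scalings, filled where the adjusted p was under 0.05. By diet in traditional-seq tsRNA-Gly-GCC, CCC and TCC lie below 0 under each scaling, and by method in LCD-fed mice tsRNA-Gly-GCC runs from -1.22 with RPM as deposited to 3.44 with scaling by miRNA reads.

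The diet effect was then compared between the methods in 1 model over the 18 libraries. By limma, 0 of 4 glycine families passed, where 2.74% of the 365 tested RNAs were called higher and 2.74% lower by PANDORA-seq than by traditional-seq in this comparison, and 3 of 4 had an unadjusted p under 0.05. The differences were 1.47 for tsRNA-Gly-GCC (SE 0.56, adjusted p = 0.134), 1.69 for tsRNA-Gly-CCC (SE 0.57, adjusted p = 0.0864), 1.37 for tsRNA-Gly-TCC (SE 0.54, adjusted p = 0.138) and -0.85 for tsRNA-Gly-ACC (SE 0.46, adjusted p = 0.283). With the mouse as a block, pairing the libraries of a mouse, tsRNA-Gly-CCC passed (adjusted p = 0.0373) and the RNAs called rose from 20 to 55.

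tsRNA-Gly-GCC, CCC and TCC passed with RPM as deposited (adjusted p = 0.0362, 0.0307 and 0.0339), where 43 RNAs were called higher and 10 lower in place of 10 and 10, and the median of all RNAs was 0.59 in place of 0.33. They also passed without the HCD library of mouse 16 by traditional-seq (differences 1.97, 2.18 and 1.80, adjusted p = 0.00982, 0.00706 and 0.0228). Without the HCD library of mouse 18 by traditional-seq they were 0.97, 1.20 and 0.88 (adjusted p = 0.677, 0.562 and 0.706). With scaling by miRNA reads, under which 0 RNAs were higher and 13 lower and the median was -0.51, the differences were 0.05 for tsRNA-Gly-GCC, 0.26 for tsRNA-Gly-CCC, -0.20 for tsRNA-Gly-TCC and -2.34 for tsRNA-Gly-ACC, and 0 of 4 passed (adjusted p = 0.992, 0.940, 0.958 and 0.102).

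The comparison of methods asked how T4PNK and AlkB changed the detection of glycine fragments. In LCD-fed mice, 2 of 4 families were lower by PANDORA-seq, where 70.5% of the 325 tested RNAs were, and 1 of 4 was higher, where 21.8% were. tsRNA-Gly-GCC fell by 1.22 on the log2 scale (SE 0.25, adjusted p = 0.000182) and was lower by PANDORA-seq in 5 of 5 mice, at 0.352 to 0.741 times its RPM by traditional-seq. Its groups did not overlap, as for 69.2% of tested RNAs that were lower. tsRNA-Gly-CCC fell by 1.25 (SE 0.31, adjusted p = 0.00120) and was also lower in 5 of 5 mice. tsRNA-Gly-ACC rose by 1.18 (SE 0.35, adjusted p = 0.00404), higher in 5 of 5 mice and in groups that did not overlap, as for 18.5% of tested RNAs that were higher. tsRNA-Gly-TCC gave -0.27 (SE 0.29, adjusted p = 0.377).

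The other cytosolic families went the opposite way from tsRNA-Gly-GCC and tsRNA-Gly-CCC on this scale, as 42 of 47 were higher and 1 was lower. That 1 was tsRNA-Ala-CGC, named after its value was seen, with -1.24. The median over these 47 families was 2.67 and that over the glycine families -0.75. tsRNA-Glu-CTC rose by 2.21 (SE 0.27, adjusted p = 7.26e-07), and its RPM by PANDORA-seq was 2.48 to 6.90 times that by traditional-seq.

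In HCD-fed mice, 1 of 4 glycine families was higher by PANDORA-seq, where 18.3% of the 312 tested RNAs were, and 61.5% were lower. This was tsRNA-Gly-TCC, which rose by 1.36 (SE 0.57, adjusted p = 0.0287) and was higher in 4 of 4 mice, with groups that did not overlap, as for 14.7% of tested RNAs that were higher. Its call was lost without the PANDORA-seq library of mouse 15, 16 or 18 or the traditional-seq library of mouse 15 or 17, with an adjusted p of up to 0.0814. tsRNA-Gly-GCC gave 0.49 (SE 0.49, adjusted p = 0.354), tsRNA-Gly-CCC 0.69 (SE 0.51, adjusted p = 0.221) and tsRNA-Gly-ACC 0.55 (SE 0.57, adjusted p = 0.381). tsRNA-Gly-GCC was higher by PANDORA-seq in 3 of these 4 mice and lower in mouse 16, with ratios from 0.495 to 2.59. Of the other 47 cytosolic families, 38 were higher, and the mitochondrial glycine family rose by 1.55 (SE 0.49, adjusted p = 0.00444).

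The sign of the method effect rested on the scaling. In LCD-fed mice tsRNA-Gly-GCC, CCC and TCC gave 0.18, 0.16 and 1.11 with TMM and 3.44, 3.42 and 4.31 with scaling by miRNA reads, each the opposite sign from RPM as deposited. The median of all RNAs moved alongside from -2.63 to -1.66 and 0.37, and the calls with scaling by miRNA reads were 135 higher and 57 lower in place of 71 and 229. Relative to that median, tsRNA-Gly-GCC stood at 1.40, 1.85 and 3.07. In HCD-fed mice tsRNA-Gly-GCC passed with TMM (1.34, adjusted p = 0.0179) and with scaling by miRNA reads (3.50, adjusted p = 3.29e-05), as the median moved from -1.84 to -1.35 and 0.35 and the calls with scaling by miRNA reads from 57 higher and 192 lower to 120 and 80.

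Measures within a library do not depend on its scaling, except through the 1 RPM added to both terms in the ratios between single families. A set of 6 such measures was tested in 5 comparisons by two-sided exact permutation tests with adjustment over the 30 tests. The 6 measures were the glycine share of cytosolic tsRNA reads, the log2 ratios of tsRNA-Gly-CCC, TCC and ACC to tsRNA-Gly-GCC, the log2 ratio of tsRNA-Gly-GCC to tsRNA-Glu-CTC, and that of summed glycine to summed miRNA reads. The smallest p that the design allows was 0.00794 by diet, for the difference and in LCD-fed mice by method, and 0.0286 in HCD-fed mice by method, where 0 of the 6 measures passed and 4 had an unadjusted p under 0.05.

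Glycine fragments were a main part of cytosolic tsRNA reads by traditional-seq and a small one by PANDORA-seq. In LCD-fed mice they held 49.9%, 43.0%, 30.2%, 31.1% and 43.7% by traditional-seq and 6.28%, 10.2%, 3.75%, 4.86% and 5.98% by PANDORA-seq. In HCD-fed mice they held 40.4%, 44.6%, 26.2% and 17.7%, and 6.54%, 4.80%, 4.13% and 4.07%. The methods did not overlap in either diet. The mean in LCD-fed mice differed by -33.4 percentage points (exact permutation p = 0.00794, adjusted p = 0.0298), and in HCD-fed mice by -27.3 (exact permutation p = 0.0286, adjusted p = 0.0659).

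Between diets the glycine share overlapped in both methods. By PANDORA-seq the mean was 4.89% ± 1.15 (SD) in HCD-fed and 6.22% ± 2.45 in LCD-fed mice (exact permutation p = 0.397, adjusted p = 0.528). By traditional-seq it was 32.2% ± 12.5 and 39.6% ± 8.57 (exact permutation p = 0.333, adjusted p = 0.526), a difference of -7.34 percentage points. That difference was -24.3 without tsRNA-Glu-CTC in the denominator and -2.35 over all annotated reads, and it passed with either (exact permutation p = 0.00794, adjusted p = 0.0265). The rank of tsRNA-Gly-GCC among the 51 families was 1 or 2 in every traditional-seq library, 2 or 3 in LCD-fed mice by PANDORA-seq, and 3 to 7 in HCD-fed mice. The share of tsRNA-Gly-ACC among cytosolic tsRNA reads by traditional-seq was 0.0250% ± 0.00507 in LCD-fed and 0.116% ± 0.0280 in HCD-fed mice. Its own mean was 17.3 and 16.5 RPM, while the denominator, all cytosolic tsRNA reads, went from a mean of 68412 to 14745 RPM.

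**Figure D3:**
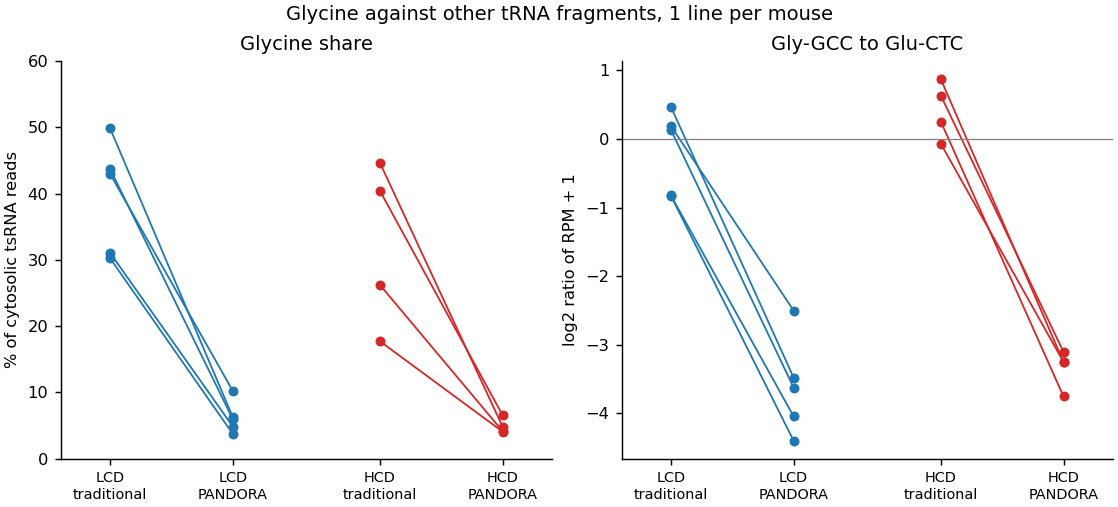
Glycine share of cytosolic tsRNA reads in percent (left) and log2 ratio of tsRNA-Gly-GCC to tsRNA-Glu-CTC (right), with 1 line per mouse from traditional-seq to PANDORA-seq, blue for LCD and red for HCD. All 9 lines fall in both panels, the shares from between 17.7% and 49.9% to between 3.75% and 10.2%.

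The balance of the main glycine and glutamate families turned between the methods. By traditional-seq tsRNA-Gly-GCC and tsRNA-Glu-CTC were close, with mean log2 ratios of -0.17 ± 0.61 (SD) in LCD-fed and 0.42 ± 0.42 in HCD-fed mice. By PANDORA-seq tsRNA-Glu-CTC prevailed, with -3.61 ± 0.72 and -3.34 ± 0.28. The shift was -3.44 in LCD-fed mice (exact permutation p = 0.00794, adjusted p = 0.0298), lower in 5 of 5 mice, and -3.76 in HCD-fed mice (exact permutation p = 0.0286, adjusted p = 0.0659), lower in 4 of 4. By diet the ratio differed by 0.27 in PANDORA-seq (exact permutation p = 0.5, adjusted p = 0.625) and by 0.59 in traditional-seq (exact permutation p = 0.159, adjusted p = 0.280).

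Set against miRNAs instead, glycine fragments were more abundant by PANDORA-seq. The mean log2 ratio of glycine to miRNA reads was -4.59 ± 0.45 (SD) by traditional-seq and -1.14 ± 0.94 by PANDORA-seq in LCD-fed mice, a shift of 3.45 (exact permutation p = 0.00794, adjusted p = 0.0298). In HCD-fed mice it was -7.35 ± 1.19 and -3.82 ± 0.99. By diet, the ratio in HCD-fed mice was lower by traditional-seq with a difference of -2.75 (exact permutation p = 0.00794, adjusted p = 0.0298), and the difference of -2.68 by PANDORA-seq missed the threshold (exact permutation p = 0.0159, adjusted p = 0.0529). Leaving out any 1 library lost the traditional-seq call, at differences from -3.23 to -2.26. The exact permutation p was then 0.0179 or 0.0286, the smallest that the reduced groups allow, so this loss does not show dependence on 1 library. With rRNA fragments in place of miRNAs, the shift between methods in LCD-fed mice turned to -2.68 and still passed.

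The rarer families were compared with tsRNA-Gly-GCC to see whether they moved together. The log2 ratio of tsRNA-Gly-CCC to tsRNA-Gly-GCC had group means between -3.17 and -2.93 and passed in 0 of 5 comparisons, with 1 unadjusted p under 0.05. Its diet difference by traditional-seq was 0.03 (exact permutation p = 0.579, adjusted p = 0.668). Each of these 2 families had whole reads in 1 of 18 libraries only, and the part of shared reads in this ratio was not tested. The ratio in LCD-fed mice varied more by PANDORA-seq (SD 0.46) than by traditional-seq (SD 0.08), with mouse 5 the highest at -2.43 and mouse 1 the lowest at -3.69.

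tsRNA-Gly-TCC was higher relative to tsRNA-Gly-GCC by PANDORA-seq. In LCD-fed mice the log2 ratio was -8.17 ± 0.31 (SD) by traditional-seq and -7.22 ± 0.27 by PANDORA-seq, a shift of 0.95 (exact permutation p = 0.00794, adjusted p = 0.0298) present in 5 of 5 mice. In HCD-fed mice it was -7.52 ± 0.52 and -6.66 ± 0.54, higher in 4 of 4 mice (exact permutation p = 0.0571, adjusted p = 0.114). By diet, the ratio differed by 0.65 in traditional-seq (exact permutation p = 0.0476, adjusted p = 0.102) and by 0.56 in PANDORA-seq (exact permutation p = 0.0794, adjusted p = 0.149). The traditional-seq difference passed with a pseudocount of 10, at 1.07.

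tsRNA-Gly-ACC parted most from tsRNA-Gly-GCC. Its log2 ratio by traditional-seq was -11.0, -10.6, -9.92, -10.2 and -10.1 in LCD-fed mice and -8.38, -8.80, -7.25 and -6.72 in HCD-fed mice. The diets did not overlap, and the mean rose by 2.59 with HCD (exact permutation p = 0.00794, adjusted p = 0.0298), a 6.01-fold higher ratio. The RPM of tsRNA-Gly-ACC itself overlapped between the diets by this method, while that of tsRNA-Gly-GCC, the denominator, did not.

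By PANDORA-seq, the tsRNA-Gly-ACC ratio was -8.38, -7.32, -7.94, -8.66 and -7.57 in LCD-fed mice and -8.71, -7.40, -7.38 and -7.43 in HCD-fed mice, with a diet difference of 0.24 (exact permutation p = 0.548, adjusted p = 0.657). The shift between methods was 2.40 in LCD-fed mice (exact permutation p = 0.00794, adjusted p = 0.0298), higher in 5 of 5 mice, and 0.05 in HCD-fed mice, higher in 1 of 4. The difference between these shifts was -2.35 (exact permutation p = 0.00794, adjusted p = 0.0298), the only one of the 6 measures whose diet effect differed between the methods. Leaving out any 1 library lost the calls by diet in traditional-seq and for this difference. The estimates were then 2.23 to 2.93 and -2.79 to -2.09, with adjusted p of up to 0.0659 and 0.0670. The exact permutation p was 0.0179 or 0.0286 each time, the smallest that the reduced groups allow. Whether the result rested on 1 library therefore cannot be read from this loss.

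**Figure D4:**
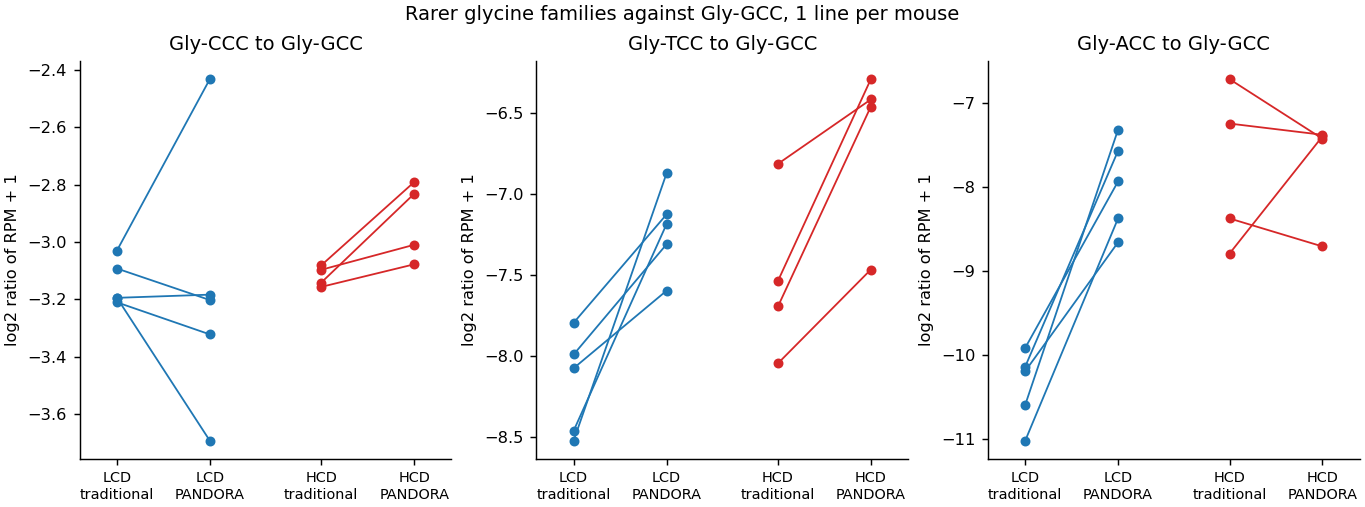
Log2 ratio of tsRNA-Gly-CCC, TCC and ACC to tsRNA-Gly-GCC, with 1 line per mouse from traditional-seq to PANDORA-seq, blue for LCD and red for HCD, on axes that differ between panels. The tsRNA-Gly-TCC lines rise in 9 of 9 mice, and the tsRNA-Gly-ACC lines rise in 5 of 5 LCD-fed and 1 of 4 HCD-fed mice.

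The 5 tests of methods that passed in LCD-fed mice used the libraries as independent. When the libraries of a mouse were paired, the exact sign-flip test could not go below p = 0.0625 with 5 mice, and all 5 measures stood at that p (adjusted p = 0.188).

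The library-to-library pattern of tsRNA-Gly-GCC was compared with 219 RNAs with a mean of at least 10 RPM, over the 18 libraries, after the 4 group means were removed. tsRNA-Gly-CCC was the most alike (Pearson r = 0.92), followed by tsRNA-Lys-CTT (r = 0.76), tsRNA-Gly-TCC (r = 0.76), miR-340 (r = 0.73), miR-146a (r = 0.72), the piRNA entry (r = 0.71) and the mitochondrial family tsRNA-Ser-GCT (r = 0.71). tsRNA-Gly-ACC (r = 0.31) and the mitochondrial glycine family (r = 0.17) ranked 110 and 138. For tsRNA-Gly-TCC the most alike RNAs outside the glycine families were tsRNA-Lys-CTT (r = 0.83), tsRNA-Leu-AAG (r = 0.81) and tsRNA-Arg-CCT (r = 0.76). These correlations are descriptions over libraries that share read totals and reads.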

How the data were processed

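The 18 libraries, 1 per mouse and method for 9 mice, were grouped by diet and method from their labels. SPORTS1.1 (1.1.0, 1 mismatch allowed, mm10) annotated the reads, and the authors deposited RPM values per RNA in 1 table. Empty cells (11673) were read as 0. Of the values under 3 RPM, 67.6% to 81.7% per library were whole multiples of the inferred value of 1 read, too few to recover counts, so the count test of the study was not used.

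Families were compared by limma 3.58.1 (R 4.3.3, mean-variance trend) on log2(RPM + 1), with Benjamini-Hochberg adjustment over all RNAs tested and a threshold of 0.05. RNAs needed 1 RPM in at least 4 libraries (diet, difference and method in HCD-fed mice) or 5 (method in LCD-fed mice). RPM were scaled by trimmed mean of M values (TMM, 30% and 5% trimmed, own code) for diet and difference, and used as deposited for the methods. The limma step was also run on simulated data in which RNAs varied independently, unlike in these libraries, which share read totals. No result here rests on that run. Ratios were tested by two-sided exact permutation tests with Python 3.11.15, numpy 2.4.6 and pandas 2.3.3. The plots used matplotlib 3.10.9.

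The methods of the study state that the libraries of a mouse came from the same RNA, which pairs them. Their deviations from the group means correlated with r of 0.0964 to 0.487, over 0.1 in 8 of 9 mice. Nothing else was left out. Members and lists were chosen with earlier results of these data known. Named RNAs are the 4 families, the mitochondrial glycine family, the glutamate families, the families of the comparison list, and the 5 RNAs most like tsRNA-Gly-GCC and 3 most like tsRNA-Gly-TCC. Alternatives were other scalings, pseudocounts, filters and denominators, a fit over all libraries, pairing, and leaving out each library.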

Additional observations from a re-analysis of the deposited data

Results flagged for a closer look

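The ratio of tsRNA-Gly-ACC to tsRNA-Gly-GCC had a diet effect that differed between the methods, by -2.35 on the log2 scale (exact permutation p = 0.00794, adjusted p = 0.0298 over 30 tests).

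Among 40 sets of values checked for a library far from the others of its group, 3 had one, where chance gives about 1 in 20. tsRNA-Gly-TCC in the HCD library of mouse 16 by traditional-seq was at 40.1 RPM, beside 11.8 to 16.3 RPM in the other 3. In the HCD library of mouse 15 by PANDORA-seq, the log2 ratio of tsRNA-Gly-TCC to tsRNA-Gly-GCC was -7.47, beside -6.46 to -6.29, and that of tsRNA-Gly-ACC to tsRNA-Gly-GCC was -8.71, beside -7.43 to -7.38. The last 2 share their denominator, tsRNA-Gly-GCC, which in that library was at 8844 RPM beside 3725 to 4652 RPM in the others.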

How the results depend on the processing

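Of 336 values of the 4 families under the alternatives, 294 kept their direction and side of the threshold, as did 309 of 381 values of the shares and ratios. Scaling by miRNA reads made tsRNA-Gly-CCC (-2.46), TCC (-2.11) and ACC (-2.39) pass by diet in PANDORA-seq, with 113 RNAs called, and turned the mitochondrial glycine family to -1.30. RPM as deposited turned tsRNA-Gly-ACC by diet in traditional-seq to -0.13 (60 RNAs called) and made the differences of tsRNA-Gly-GCC (1.72), CCC (1.93) and TCC (1.63) pass (53 called), while scaling by miRNA reads gave -0.17 (52 called) and differences of -0.20 for tsRNA-Gly-TCC and -0.42 for the mitochondrial family (13 called). By method in LCD-fed mice, TMM gave 0.18, 0.16 and 1.11 for tsRNA-Gly-GCC, CCC and TCC and scaling by miRNA reads 3.44, 3.42 and 4.31 (192 called). In HCD-fed mice tsRNA-Gly-GCC, CCC and ACC passed with TMM (1.34, 1.53 and 1.36) and by miRNA reads (3.50, 3.68 and 3.34). With no filter, tsRNA-Gly-GCC by diet in PANDORA-seq (-1.17) and TCC in traditional-seq (-1.45) lost their calls. In PANDORA-seq, traditional-seq and the difference, 13, 10 and 9 RNAs were then called in place of 57, 34 and 20. More RNAs were tested without the filter. tsRNA-Gly-GCC by diet in PANDORA-seq was -0.84 in 1 fit of all libraries, and TCC in traditional-seq -1.16 with a pseudocount of 10. The cause of these changes was not tested.

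With the mouse as a block, tsRNA-Gly-CCC (1.69) and tsRNA-Glu-CTC (1.80) passed for the difference, with 55 RNAs called. Under the paired sign-flip test, whose smallest p is 0.0625, the 5 measures of methods in LCD-fed mice (-33.4, 0.95, 2.40, -3.44 and 3.45) no longer passed. Pairing changed no other call. A pseudocount of 10 gave 1.07 for the ratio of tsRNA-Gly-TCC by diet in traditional-seq, which then passed, and -0.14 for tsRNA-Gly-ACC by method in HCD-fed mice. The glycine share by diet in traditional-seq passed without tsRNA-Glu-CTC in the denominator (-24.3 percentage points) or over all annotated reads (-2.35), and over the latter the method difference in HCD-fed mice was 0.20. Against rRNA fragments, glycine shifted between methods by -2.68 in LCD-fed and -0.90 in HCD-fed mice.

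Leaving out each library in turn moved the log2 fold changes by diet in PANDORA-seq to between -1.41 and -1.04 for tsRNA-Gly-GCC and between -1.12 and -0.79 for CCC, with 23 to 56 RNAs called. By diet in traditional-seq tsRNA-Gly-TCC ran from -1.93 to -1.34 and the mitochondrial glycine family from -0.48 to 0.15, with 18 to 56 called. tsRNA-Gly-TCC by method in HCD-fed mice ran from 1.16 to 1.72. The differences ran from 0.97 to 1.97 for tsRNA-Gly-GCC, 1.20 to 2.18 for CCC and 0.88 to 1.80 for TCC, with 3 to 36 called. Ratios to tsRNA-Gly-GCC ran from -0.21 to 0.11 for CCC by method in LCD-fed mice, from -0.21 to 0.088 for the difference of TCC, and, for ACC, from 2.23 to 2.93 by diet in traditional-seq, from -0.28 to 0.41 by method in HCD-fed mice and from -2.79 to -2.09 for the difference. Glycine to miRNA ran from -3.23 to -2.26 by diet in traditional-seq and from -0.28 to 0.65 for the difference. With fewer libraries the smallest p of the exact tests is larger. Depth limits tsRNA-Gly-ACC most, with as few as 24.4 inferred reads.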

Other observations

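Among the 51 cytosolic families ordered by their log2 fold change between methods with RPM as deposited, tsRNA-Gly-CCC, GCC, TCC and ACC ranked 1, 3, 5 and 13 from the lowest in LCD-fed mice and 8, 5, 13 and 6 in HCD-fed mice. In HCD-fed mice by traditional-seq, tsRNA-Gly-ACC ran from 8.46 to 26.7 RPM and tsRNA-Gly-GCC from 1438 to 8523 RPM, and the library of mouse 18 was the highest for the former while that of mouse 16 was the highest for the latter. In the libraries of mouse 16, tsRNA-Gly-GCC by PANDORA-seq was at 0.495 times its level by traditional-seq, whereas tsRNA-Glu-CTC was at 8.65 times.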
